A study of Mus musculus with 4 samples.

Results

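Natural killer (NK) cells and group 1 innate lymphoid cells (ILC1) were described in 4 droplet libraries of gut intraepithelial leukocytes, each from a different segment (stomach, small intestine, cecum, colon). A cell barcode was counted as an NK or ILC1 cell when it held at least 1 UMI (a counted transcript molecule) of Ncr1, 0 UMIs summed over Cd3d, Cd3e and Cd3g, 0 UMIs summed over Cd79a and Csf1r, and fewer than 3 UMIs of Cpa3. The rule is itself built on measured UMIs, so levels of its own genes are a description and not a result. The Cd3 chains mark T cells, Cd79a B cells, Csf1r macrophages and Cpa3 mast cells. The rule found 410 of 14378 barcodes, 2.85% of the series, with 295 stomach, 30 small intestine, 40 cecum and 45 colon barcodes. All 4 groups were of the C57BL/6 strain, carried no infection, and were sorted as live CD45+ cells, stated elsewhere in the labels as CD45.2+. The 4 records share an extraction text that names colons only, and the tissue labels were followed here. The number of animals, their age and sex, and any pooling are not given in the sources used here. Each tissue had a single library and hence no replicate check, so tissue, animal and library cannot be told apart. Intervals below are at 95%, and they cover counting error only. Where a run of 4 values carries no names, it is in the order stomach, small intestine, cecum, colon, and a run of 3 is in the order small intestine, cecum, colon.

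NK cells and ILC1 are lymphocytes without a rearranged antigen receptor that read the health of neighbouring cells through germline-encoded receptors and answer with interferon gamma, chemokines and cytotoxic granules. In mice both carry the activating receptor NKp46, the product of Ncr1, and express the factor T-bet. Circulating NK cells additionally use Eomes and carry Ly49 receptors for class I molecules, whereas ILC1 reside in tissue and are known for the chemokine receptor Cxcr6, the interleukin 7 receptor and integrins that anchor them in epithelium.

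Promoter sequences are shown for 3 marker genes, because Ncr1 defines the cells, Klrb1b separated them most from T cells, and Gzmc differed most between libraries among the markers. Each is the 250 bases before the transcription start in RefSeq on GRCm38.p6, written 5′ to 3′ on the gene's strand: Ncr1 at chr7:4337465-4337714 (plus strand), Klrb1b at chr6:128826316-128826565 (minus strand) and Gzmc at chr14:56234658-56234907 (minus strand), a window that lies within the annotated span of Gzmc. Capitals mark matches, on either strand, to the letters GGTGTG (T-box factors such as T-bet and Eomes), TGTGGT (RUNX factors) and AGGAAG (ETS factors), with ACCACA and CTTCCT as 2 of the reverse complements.
Ncr1: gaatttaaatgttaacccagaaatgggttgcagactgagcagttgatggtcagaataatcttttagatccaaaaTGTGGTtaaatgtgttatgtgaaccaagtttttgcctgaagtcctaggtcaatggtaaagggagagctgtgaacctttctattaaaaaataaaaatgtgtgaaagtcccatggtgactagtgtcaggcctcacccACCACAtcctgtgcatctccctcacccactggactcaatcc
Klrb1b: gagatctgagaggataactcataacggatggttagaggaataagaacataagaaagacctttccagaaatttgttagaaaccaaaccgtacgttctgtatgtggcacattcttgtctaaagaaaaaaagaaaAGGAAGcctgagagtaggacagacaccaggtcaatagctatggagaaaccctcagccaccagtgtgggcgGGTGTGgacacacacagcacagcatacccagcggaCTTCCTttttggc
Gzmc: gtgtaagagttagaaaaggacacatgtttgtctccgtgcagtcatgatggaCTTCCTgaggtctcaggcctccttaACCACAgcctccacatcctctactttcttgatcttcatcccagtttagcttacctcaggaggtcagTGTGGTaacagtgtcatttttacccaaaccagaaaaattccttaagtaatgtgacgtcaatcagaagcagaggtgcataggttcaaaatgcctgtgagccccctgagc
The Ncr1 window held 2 RUNX matches, the Klrb1b window 1 T-box and 2 ETS matches, and the Gzmc window 2 RUNX matches and 1 ETS match. RefSeq entries were found for 5 of the 6 marker genes, and among those 5 a T-box match was present for 2, a RUNX match for 3 and an ETS match for 3. Over 32851 mouse promoter windows of the same length the shares with a match were 16.3% (T-box), 14.0% (RUNX) and 29.5% (ETS). A match describes letters and is not a measured binding site.

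The libraries held 3171 to 4244 barcodes and 8568438 to 12988676 UMIs. NK and ILC1 barcodes held a median of 2766 UMIs in stomach, 2264.5 in small intestine, 1902.5 for cecum and 2811 for colon, and T cells of the same libraries 2502, 2329, 1753 and 3005. T cells were barcodes with at least 2 Cd3 UMIs and 0 of Ncr1 that met the other limits, and numbered 235, 2447, 3346 and 3283. The shallowest barcode of each library had 280, 1581, 361 and 224 UMIs in the same order. Pairs of libraries shared 23 barcode sequences in total, and 0 of these were NK or ILC1 barcodes.

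The label was checked against markers of other cells. Cd8b1, Cd5, Cd6 and Themis, genes of conventional T cells, had 0 UMIs in NK and ILC1 barcodes of all 4 libraries, and 10 to 13 of 17 T cell marker genes outside the rule had at least 1 UMI. The summed level of these 17 genes was 2308, 2309.5, 2734 and 2903 CPM (summed UMIs scaled to the same total in every library and cell type) in NK and ILC1 barcodes and, for T cells of the same libraries, 7401, 7422, 6984 and 7296 CPM. Most of it was the beta-chain constant genes Trbc1 and Trbc2: Trbc1 stood at 863, 1148, 1241 and 1351 CPM in NK and ILC1 barcodes and at 1034, 1119, 1439 and 1400 CPM in T cells. Trbc2 stood at 863, 708, 772 and 876 CPM in NK and ILC1 barcodes, lower than the 2561, 1787, 2906 and 2769 CPM in T cells. Trbc1 and Trbc2 are near-identical copies, so the split between them is uncertain. Only 16 stomach, 2 small intestine, 4 cecum and 1 colon barcodes had 0 UMIs of every T cell receptor constant gene. By contrast Trac, the alpha-chain constant gene, was at 33.7, 28.3, 12.7 and 29.7 CPM in NK and ILC1 barcodes, against 1022 (stomach), 589 (small intestine), 909 (cecum) and 869 (colon) CPM in T cells.

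Among other lineages, 10 of 14 macrophage markers had a UMI in stomach and 1 to 5 elsewhere, with summed levels of 139, 56.7, 12.7 and 81.7 CPM. For B and plasma cells, 3 to 7 of 14 markers had a UMI, summing to 379.5, 1162, 379.8 and 296.9 CPM. By Cpa3 counts 1853 of 3199 stomach barcodes were mast cells. Mast cell markers had a UMI for 13 of 16 genes in stomach NK and ILC1 barcodes and for 3, 4 and 2 genes elsewhere. Their sum was 516.5 CPM in stomach, 368.4 in small intestine, 177 for cecum and 223 for colon, against 129105 CPM or more in mast cell barcodes of these libraries. ILC3 markers had a UMI for 7 of 13 genes in stomach and 3 or 4 elsewhere (848, 482, 519 and 579 CPM summed), and ILC2 markers for 11 of 13 in stomach and 3 to 5 elsewhere (545, 510.1, 557 and 364 CPM). Dendritic cell markers summed to 246, 354, 152 and 259.8 CPM with Siglech at 0 UMIs in all 4, and epithelial markers to 35.9, 127.5, 88.6 and 59.4 CPM. Counts of genes with a UMI depend on the UMIs summed, which were 890631 in stomach and 70578, 78997 and 134706 elsewhere. The part of these marker transcripts in the results was not tested.

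NK and ILC1 cells were most frequent in the stomach. They made up 9.22% (8.24 to 10.3%) of stomach barcodes, against 0.946% (0.639 to 1.35%) in small intestine, 0.943% (0.674 to 1.28%) for cecum and 1.20% (0.873 to 1.60%) for colon. The stomach share was 9.75-fold (6.68 to 14.7) that of small intestine, 9.78-fold (7.02 to 14.0) that of cecum and 7.71-fold (5.62 to 10.8) that of colon. Intervals of the 3 intestinal shares overlapped one another and lay far below that of stomach. Set beside T cells, stomach had 295 NK and ILC1 barcodes and 235 T cells, while each intestinal library had at least 2447 T cells. After thinning each barcode to 1000 UMIs the shares were 6.28, 0.536, 0.710 and 0.907%. Among barcodes of at least 1581 UMIs, the depth of the shallowest small intestine barcode, the stomach share was 11.96%.

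Stomach also had the most barcodes with Ncr1 before the other limits were set, with 399 stomach, 56 small intestine, 98 cecum and 108 colon barcodes. A Cd3 UMI removed 15.8% of them in stomach, 41.1% in small intestine, 58.2% for cecum and 58.3% for colon, and the Cpa3 limit alone removed 32 in stomach and 0 elsewhere. In barcodes with Cd79a, which should lack the gene, Ncr1 was seen in 2.34% (stomach), 1.05% (small intestine), 0.327% (cecum) and 0% (0 of 218, colon), at median depths of 2672, 9709, 1277.5 and 2029.5 UMIs. In T cell barcodes with at least 2 Cd3 UMIs it was seen in 14.9% (stomach), 0.827%, 1.497% and 1.65%.

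At the edge of the rule, the 93 stomach barcodes with exactly 1 Ncr1 UMI had 715 CPM of Klrb1b and 1116 of Klrk1, and the 202 with more had 633 and 1239 CPM. Just outside it, the 15 stomach barcodes with 1 Cd3 UMI had 582 CPM of Klrb1b and 40.1 of Trac, and the 45 with at least 2 Cd3 UMIs had 481 and 188 CPM. In cecum, 51 barcodes with at least 2 Cd3 UMIs had 67.4 CPM of Klrb1b and 506 of Trac. The 32 stomach barcodes with 3 or more Cpa3 UMIs had 57.1 CPM of Klrb1b and 66817 of Mcpt2, a mast cell protease.

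Ncr1 (chr7:4337715-4345184, GRCm38.p6 here and below) was at 874, 864, 1215 and 1017 CPM in NK and ILC1 barcodes, as the rule required. The other 5 markers were present in all 4 libraries with 1 exception. Klrb1b (chr6:128813706-128826315), an inhibitory receptor of the NKR-P1 family, stood at 657, 567, 544 and 445 CPM in NK and ILC1 barcodes, against 43.5, 2.88, 3.05 and 5.51 CPM in their T cells. Klrk1 (chr6:129610323-129623903), which encodes the activating receptor NKG2D, was at 1204, 793, 1089 and 1002 CPM, against 541, 15.3, 153 and 127 CPM in T cells. Both varied less between libraries in NK and ILC1 barcodes than in T cells, where stomach was highest. Klrb1f (chr6:129045837-129059724), another NKR-P1 receptor, was at 240.3, 213, 253 and 282 CPM, against 21.8, 10.7, 4.88 and 6.84 CPM in T cells.

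Gzmc (chr14:56231397-56241647), a granzyme of cytotoxic granules, was the uneven one. It was at 583 CPM in stomach and 379 in colon, 38.0 in cecum from 3 UMIs, and 0 in small intestine, where the interval for 0 UMIs reaches 52.3 CPM. It was carried by few barcodes: 18.6% in stomach, 5% in cecum and 17.8% in colon. In T cells Gzmc was at 52.9, 23.0, 21.6 and 29.9 CPM, so small intestine NK and ILC1 barcodes were not above their T cells. In cecum the ratio of NK and ILC1 barcodes to T cells was 1.75 (0.358 to 5.23). Styk1 (chr6:131299133-131353836), a kinase-like membrane protein, was at 226 CPM in stomach, 156 in small intestine, 114 for cecum and 59.4 for colon, against 24.9, 0.908, 1.83 and 3.38 CPM in T cells. After thinning, 47.8% of stomach barcodes held a Klrb1b UMI (76.9% unthinned), 33.3% of small intestine, 30% of cecum and 36.4% of colon barcodes did, and 0 of 76, 201, 442 and 175 B cell barcodes did.

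**Figure D1:**
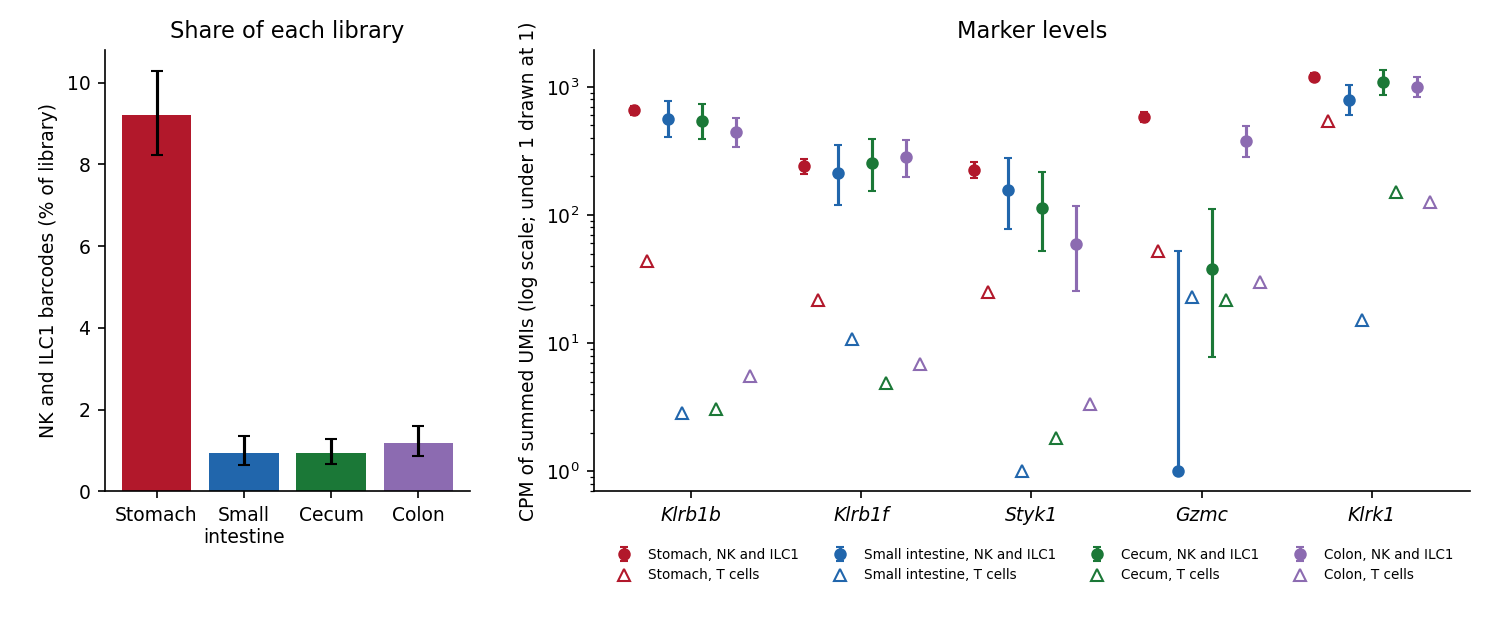
Left, NK and ILC1 barcodes as a percentage of all barcodes in each library, with exact binomial intervals, and right, CPM of 5 marker genes on a log axis in NK and ILC1 barcodes (filled circles, exact Poisson intervals) and T cells (open triangles) of each library. The stomach share is 9.22% and the others lie between 0.943% and 1.20%, while Klrb1b and Klrk1 are at similar levels in all 4 sets of NK and ILC1 barcodes.

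Against T cells of the same library, receptors of the NK gene complex set the NK and ILC1 barcodes apart. Because the cells were chosen by Ncr1 and Cd3 counts, these differences are a description. Of 1725 genes with at least 100 CPM in either cell type in every library, 18 (1.04%) were at least 2-fold higher in NK and ILC1 barcodes in all 4 libraries and 7 (0.406%) at least 2-fold lower, and the median log2 ratio over these genes was between -0.05 and 0.07 in each library. Of 9 T cell marker genes outside the rule that were tested, 5 were lower in all 4 (Trac, Trbc2, Trdc, Cd8a and Bcl11b). The 9 had a median log2 ratio of -1.61, against -0.02 over all genes tested.

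Klrb1b led with a median log2 ratio over the 4 libraries of 6.91, followed by Klrb1f at 4.84 and Klri2 at 4.68, a lectin-like receptor that pairs with Klre1. Klri2 was at 165, 538, 443 and 304 CPM in NK and ILC1 barcodes, against 6.22, 4.69, 19.4 and 12.3 CPM in T cells. Of 8 NKG2 and NKR-P1 receptors tested, 6 were at least 2-fold higher in all 4 libraries (Klrb1b, Klrb1c, Klrb1f, Klre1, Klri2 and Klrk1), with a list median of 3.15. The share past that limit over all 1725 genes was 1.04%. Klrb1c, which encodes the NK1.1 antigen, had a median of 3.39, at 351, 737, 810.2 and 609 CPM against 80.9, 50.1, 61.3 and 73.1 CPM in T cells. Klrd1, the CD94 partner of NKG2 chains, was at 1254, 1134, 1646 and 1166 CPM against 569, 835, 1477 and 1592 CPM, past 2-fold in stomach only.

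Genes outside the receptor family also separated the cells. Tmem176b (median 4.02) and Tmem176a (3.79), neighbouring genes for membrane proteins, were higher in NK and ILC1 barcodes: Tmem176b was at 423, 227, 240.5 and 319 CPM, against 180.4, 7.42, 16.5 and 17.7 CPM in T cells. Itgax, the integrin CD11c, had a median of 3.15, Gas7 3.01 and Samd3 3.003. Tyrobp, the DAP12 adaptor that couples NK receptors to Syk kinases, was at 2335, 3032, 2937 and 3044 CPM against 502, 1254, 473 and 696 CPM. It was the only one of 14 adaptor and signalling genes past 2-fold in all 4. In the NK and ILC1 shared list 6 of 15 genes were past it, with a median of 1.43. These 6 were Tyrobp and the receptors Klrb1b, Klrb1f, Klrb1c, Klrk1 and Klre1, all already counted. Beside both list counts stands a share of 1.04% higher over all genes tested.

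At the low end were Cd8a (median -6.07), Trac (-4.90), Trdc (-3.66) and Bcl11b, a factor of T cell commitment (-2.04). The Cd8a value rests on 1, 1, 0 and 0 UMIs in NK and ILC1 barcodes, with a count of 0 taken as 3. Next came Nt5e, the ectoenzyme CD73 (-1.65), Trbc2 (-1.61), Ssbp3 (-1.44) and the T cell adaptor Lat (-1.38). Arap2 had a median of -1.25, and Ssbp3, Lat, Arap2 and Gzma were not past 2-fold in all 4 libraries. Gzma, a granule protease, was at 624, 468, 190 and 1351 CPM, against 765, 26958, 728 and 2067 CPM in T cells, a median of -1.28 with small intestine far apart from the rest. Ccr2 (median 5.40) and Plac8 (-2.65) would have been named by the same rule. In the cell type where each was higher its level was under 20% of that in another cell class of a library. Both were set apart by this limit as possible free RNA, which was not tested. After thinning, Ccr2 was seen in 28.8, 30, 10 and 22.7% of NK and ILC1 barcodes. The shares of B cell barcodes with Ccr2 were 1.32, 0.498, 0 and 0.571%. Interferon gamma (Ifng) was at 890.4, 411, 506 and 475 CPM in NK and ILC1 barcodes and 594, 71.1, 139 and 87.0 CPM in T cells, so stomach was the highest library in both cell types. The chemokine gene Xcl1 was at 3812, 2990, 1937 and 2212 CPM against 1172, 637, 863 and 1568 CPM.

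Stomach NK and ILC1 barcodes were then set against those of the other 3 libraries summed, with 890631 UMIs in stomach and 284281 in the others, of which colon gave 134706. A gene counted as higher or lower when the ratio was at least 2-fold and its counting interval excluded 1. Of 2374 genes tested, 66 (2.78%) were higher in stomach and 203 (8.55%) lower, and the median over all of them was 0.02 on the log2 scale. Without colon 100 genes were higher. By pairs, 115 (4.6%) were higher and 277 (11.1%) lower against small intestine, 146 (5.62%) and 311 (12%) against cecum, and 122 (5%) and 230 (9.43%) against colon. All 66 higher genes and 195 of the 203 lower ones had the same direction against each of the 3 libraries. T cells of the same libraries differed in the same direction for many of them: 48 of the 66 were also at least 2-fold higher in stomach T cells and 128 of the 203 at least 2-fold lower, where 169 and 200 of all 2374 genes were. The part of the library in these differences was not tested.

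**Figure D2:**
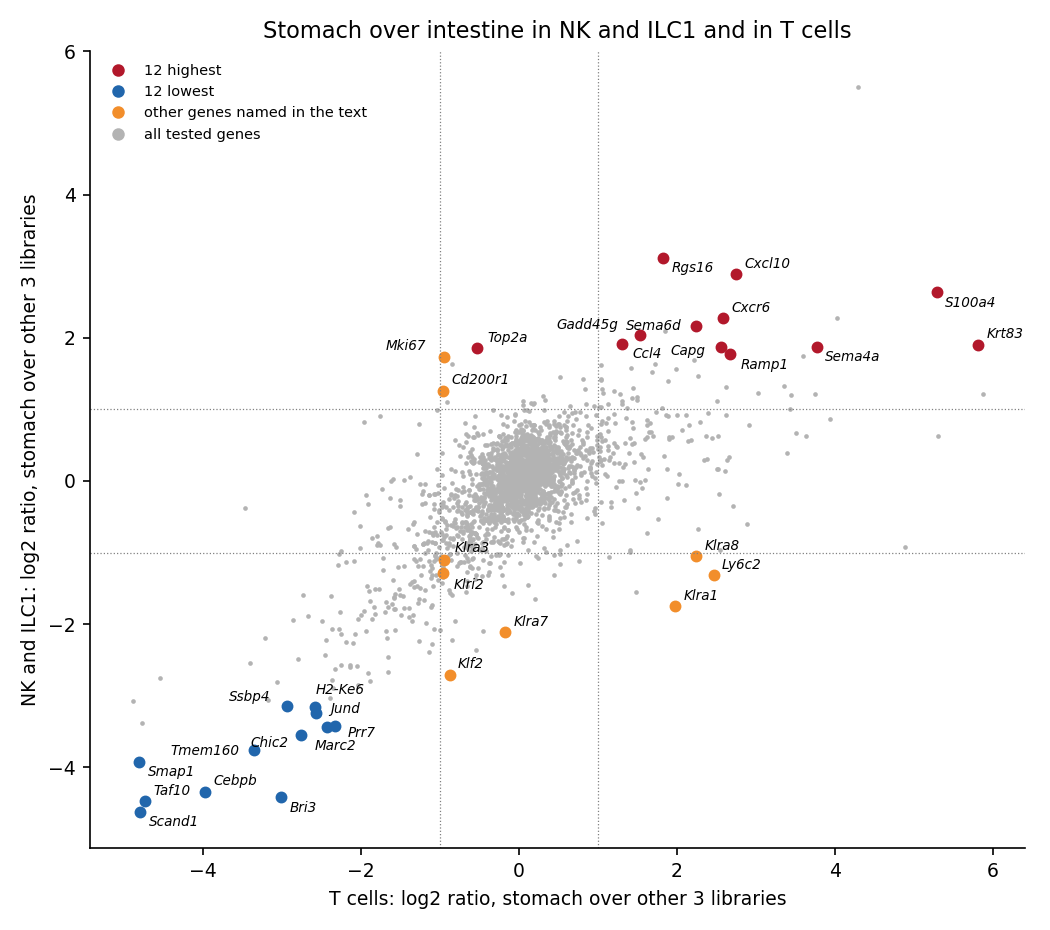
Each point is 1 of 2374 genes, with the log2 ratio of stomach over the other 3 libraries in T cells on the x axis and in NK and ILC1 barcodes on the y axis and dotted lines at 2-fold. Most coloured genes lie along the diagonal, while Klra1, Klra8 and Ly6c2 lie at the lower right and Top2a, Mki67 and Cd200r1 at the upper left.

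S100a4 (chr3:90603770-90606045), a calcium-binding protein linked to cell motility, was at 1949 CPM in stomach, against 510.1 in small intestine, 76.0 for cecum and 349 for colon, a ratio of 6.23 (5.03 to 7.79). It was found in 82.7% of stomach barcodes and 21.7% of the others. Cxcr6 (chr9:123806477-123811754), the receptor for Cxcl16 that marks resident lymphocytes, was at 801 CPM, against 326, 177 and 74.2 CPM, a ratio of 4.84 (3.60 to 6.65). Its log2 ratio was 2.28, and 3.07 after thinning. Stomach was highest for both genes, and cecum lowest for S100a4 and colon for Cxcr6.

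Ccl4 (chr11:83648624-83664683), an inflammatory chemokine, was at 2780.1 CPM in stomach, against 354, 316 and 1180.3 CPM in small intestine, cecum and colon. The ratio was 3.78 (3.28 to 4.38), and without colon its log2 value was 3.06 in place of 1.92. Cxcl10, an interferon-induced chemokine, was at 338 CPM in stomach, against 0, 101 and 37.1 CPM, a ratio of 7.39 (4.26 to 14.0). Its log2 ratio was 2.89, 3.79 without cecum and 1.94 after thinning.

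Rgs16, a brake on G-protein signalling, had the highest ratio, 8.70 (3.30 to 32.5), with 122 CPM in stomach and 42.5, 12.7 and 0 CPM elsewhere. That value rests on few counts, and its log2 ratio of 3.12 was 4.71 without small intestine, 2.19 without colon and 1.88 after thinning. The semaphorins Sema6d and Sema4a had log2 ratios of 2.17 and 1.88, and Sema6d 3.24 without small intestine. Gadd45g, a stress sensor, had 2.04 (2.74 without cecum), the hair keratin gene Krt83 1.90 (1.29 after thinning), the actin-capping gene Capg 1.87 (4.49 after thinning) and Ramp1, a subunit of the calcitonin gene-related peptide receptor, 1.77 (1.03 after thinning). Of the 12 genes named here 11 were also at least 2-fold higher in stomach T cells, the largest being Krt83 with a T cell log2 ratio of 5.82 and S100a4 with 5.29. Mcpt2, Cxcl2 and Cd83 met the same limits and were set apart as possible free RNA: Mcpt2 was seen in 13.6% of thinned stomach NK and ILC1 barcodes and in 21.1% of stomach B cell barcodes.

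Top2a, a topoisomerase of dividing cells, was the exception. It was at 115 CPM in stomach NK and ILC1 barcodes, against 0, 25.3 and 52.0 CPM in small intestine, cecum and colon, a log2 ratio of 1.85, while its T cell log2 ratio was -0.53. One barcode held 34.3% of its stomach UMIs. Its log2 ratio was 0.52 without barcodes of over 2 times the median depth and 3.10 without colon.

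The 12 lowest ratios lay between -4.62 and -3.14 on the log2 scale. Scand1 (chr2:156311846-156312704) was at 13.5 CPM in stomach, against 255, 380 and 341 CPM in small intestine, cecum and colon, or 24.5-fold (13.4 to 49.2) lower. Taf10, a subunit of general transcription complexes, was at 11.2 CPM against 283, 203 and 259.8 CPM, and Cebpb, a transcription factor of inflammation and metabolism, at 14.6 CPM against 269, 380 and 259.8 CPM. Stomach was the low library each time and the 3 intestinal libraries were alike. Jund (chr8:70697739-70700616), a subunit of the AP-1 factor, was at 512 CPM in stomach, against 4378, 5975 and 4410 CPM, a log2 ratio of -3.24. The others were Bri3 (-4.42), the Arf regulator Smap1 (-3.92), Tmem160 (-3.76), Chic2 (-3.54), Marc2 (-3.43), Prr7 (-3.43), H2-Ke6 (-3.15) and Ssbp4 (-3.14). After thinning the log2 ratio was -3.73 for Scand1, -3.29 for Taf10, -3.20 for Bri3, -2.99 for Smap1, -2.17 for Tmem160, -5.82 for Prr7, -2.46 for H2-Ke6 and -3.82 for Ssbp4. All 12 were also lower in stomach T cells, with log2 ratios of -2.33 to -4.80.

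Most Ly49 genes tested were lower in stomach NK and ILC1 barcodes. The list held 13 Ly49 genes, of which 7 passed the filters and were tested. Of these 7, 5 were lower in stomach (Klra1, Klra3, Klra7, Klra8 and the pseudogene Klra13-ps) and 0 higher. Over all genes tested 8.55% were lower and 2.78% higher. The median log2 ratio of the 7 Ly49 genes was -1.11, against 0.02 over all genes tested and 1.51 for the same 7 genes in T cells. No level filter was applied in T cells, and after thinning 0.426% of stomach T cells held a Klra8 UMI. Klra1 was in 14.0% of thinned stomach T cells, against 0.940, 6.44 and 4.55% elsewhere, but Klra7 in 11.9% against 3.43, 24.6 and 18.0%. In NK and ILC1 barcodes Klra7, which encodes Ly49G, was at 110.0 CPM in stomach, against 482, 430.4 and 497 CPM elsewhere. Stomach was 4.32-fold (3.30 to 5.66) lower. Klra7 UMIs were seen in 4.07% of thinned stomach barcodes, against 26.7% in small intestine, 20% for cecum and 31.8% for colon, and in 0, 0, 0 and 0.571% of B cell barcodes. Klra8, the Ly49H receptor for a cytomegalovirus protein, was at 93.2 CPM against 255, 152 and 186 CPM. Klra3 was at 68.5 CPM against 227, 152 and 104 CPM, and Klra1 at 32.6 CPM against 99.2, 63.3 and 141 CPM. Ly49 genes are close paralogs whose reads the counting could split, so single-gene values are uncertain.

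Of 9 NKG2 and NKR-P1 genes, 1 was lower in stomach (Klri2) and 0 higher, beside 8.55% lower and 2.78% higher over all genes tested, and the list's median log2 ratio was -0.29. Klrb1c stood just inside the limit, with a log2 ratio of -0.99. Among 7 other activating and inhibitory receptors 0 passed either way, with a median of 0.12. Of 17 adaptors 4 were lower in stomach (Cd247, Plcg2, Sh2d1a and Fyn), with a median of -0.24. Cd247, the zeta chain of receptor complexes, was at 32.6 CPM in stomach, against 156, 88.6 and 81.7 CPM.

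**Figure D3:**
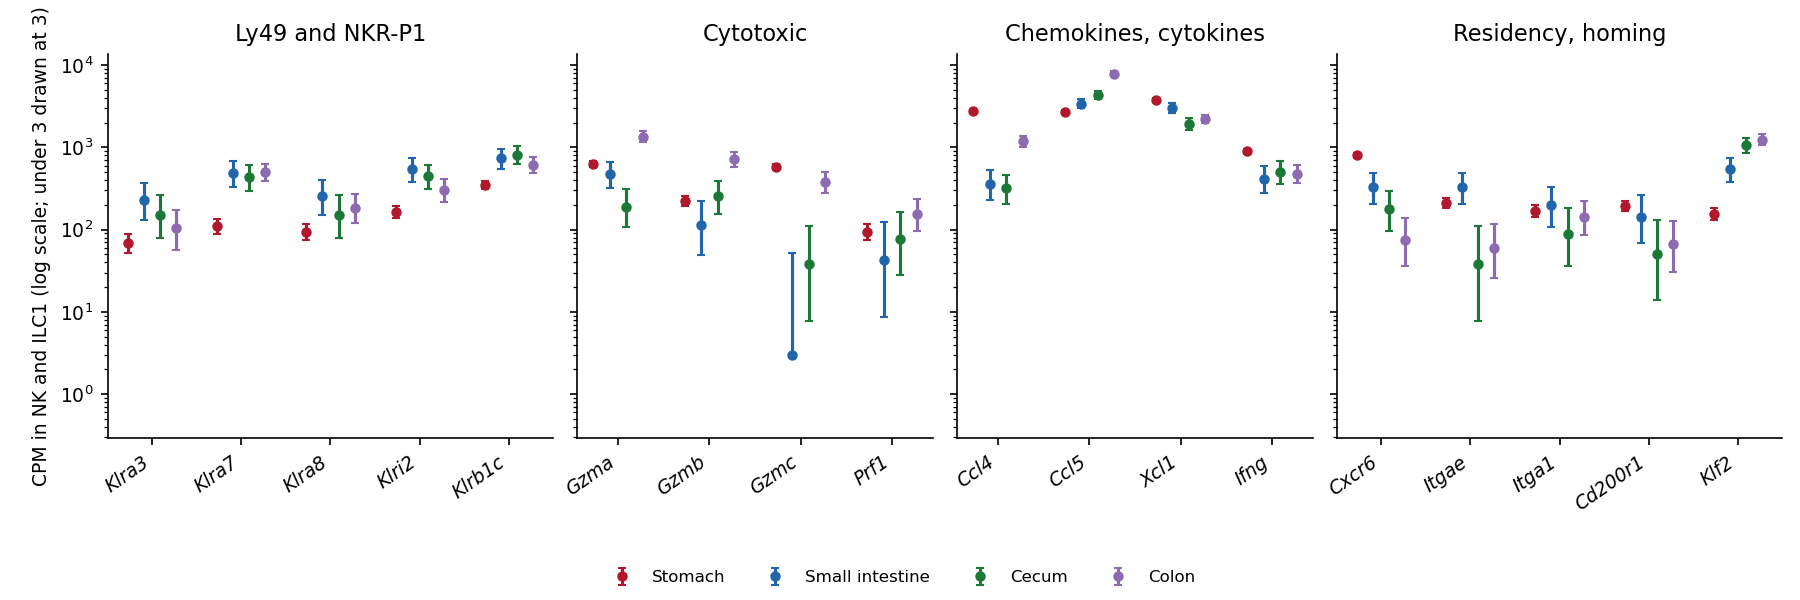
CPM of 18 genes in NK and ILC1 barcodes of each library on a log axis, with exact Poisson intervals. Klra7, Klri2 and Klf2 are lowest in stomach, Cxcr6 and Ccl4 are highest in stomach, and Gzmc is at 0 UMIs in small intestine.

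Of 15 cytotoxic granule genes tested, 1 was higher in stomach (Gzmc) and 1 lower (Lamp1, a lysosomal membrane protein), beside 2.78% and 8.55% of all genes tested, and the median ratio was -0.37 on the log2 scale. Gzmb was at 223 CPM in stomach, 113 in small intestine, 253 for cecum and 720.1 for colon, and the pore-forming protein gene Prf1 at 94.3, 42.5, 76.0 and 156 CPM. Colon was the highest library for Gzma, Gzmb and Prf1, although 37.4% of the Gzma UMIs of the 3 intestinal libraries lay in 1 barcode. Gzma also met the limit for possible free RNA, at 809 CPM in these 3 libraries summed against 8442 CPM in their T cells. Gzmc had a stomach ratio of 3.07 (2.31 to 4.14), with 17.0% of stomach UMIs and 46.3% of those of the other libraries in 1 barcode each.

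Of 11 cytokine and chemokine genes, 3 were higher in stomach (Tnf, Ccl4 and Cxcl10) and 2 lower (Ccl5 and Tgfb1). Their median was 0.53, and of all genes tested 2.78% were higher and 8.55% lower. Tnf, the inflammatory cytokine, was at 131 CPM in stomach, against 113, 38.0 and 37.1 CPM. Ccl5, a chemokine of cytotoxic cells, was at 2723 CPM in stomach, against 3400.5, 4329 and 7876 CPM, so its level was lowest in stomach and highest in colon. Ifng had a log2 ratio of 0.93 and Xcl1 0.71, both short of 2-fold. Among 12 cytokine receptors 0 passed either way, with a median of 0.27. The interleukin 7 receptor gene Il7r was at 170 CPM in stomach, 142 in small intestine, 139 for cecum and 163 for colon.

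Of 14 genes that lean to conventional NK cells, 6 were lower in stomach and 0 higher, beside 8.55% lower and 2.78% higher over all genes tested. These 6 were the Ly49 genes Klra1, Klra3, Klra7 and Klra8, already counted above, with Klf2 and Ly6c2. Ly6c2 was at 82.0 CPM in stomach, against 14.2, 177 and 319 CPM, so it was not lower than in small intestine. The list had a median of -0.78, and the same genes had a median of 1.49 in T cells, where no level filter was applied. Of 14 ILC1-leaning genes, 2 were higher (Cd200r1 and Cxcr6) and 0 lower, with a median of 0.50, against 0.27 in T cells. Klf2 (chr8:72319062-72321654), a factor that promotes exit from tissue, was at 156 CPM in stomach, against 538, 1063 and 1239.7 CPM, a log2 ratio of -2.70. Cd200r1, an inhibitory receptor of mouse ILC1, was at 194 CPM against 142, 50.6 and 66.8 CPM. Eomes itself was at 74.1 CPM in stomach, against 113, 50.6 and 148 CPM, and Tbx21, which encodes T-bet, at 227 CPM against 170.0, 190 and 193 CPM. For neither factor was stomach past 2-fold against the other 3 libraries summed.

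In the residency list, 1 of 16 genes was higher (Cxcr6) and 3 lower (Ahr, Tgfb1 and Smad7), with a median of -0.29. Itgae, the integrin chain that binds E-cadherin, was at 212 CPM (stomach) and 326 CPM (small intestine), but 38.0 in cecum and 59.4 in colon, and Itga1, which binds collagen, at 170, 198, 88.6 and 141 CPM. Small intestine was the highest library for Itgae in T cells as well, where it was at 112 (stomach), 952 (small intestine), 187 (cecum) and 274 (colon) CPM. Ahr, the aryl hydrocarbon receptor, was at 95.4 CPM in stomach, against 213, 392 and 267 CPM. Of 18 trafficking genes 1 was higher (Cxcr6) and 1 lower (Gpr18), with a median of 0.27. Of 19 transcription factors 2 were lower (Klf2 and Ahr) and 0 higher, with a median of -0.13. Beside these list counts stand 2.78% higher and 8.55% lower over all genes tested.

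Stress-response genes split. Of 27 immediate early and dissociation-response genes, 8 were higher in stomach (Atf3, Zfp36, Hspa1a, Hspa8, Hspe1, Hsph1, Hsp90aa1 and Dnajb1). Another 5 were lower (Fosl2, Jund, Ier5, Dusp2 and Btg1), beside 2.78% higher and 8.55% lower over all genes tested. The 27 genes had a median of 0.62. In T cells the median of the same genes was 1.09. Hspa1a, a heat-shock chaperone with a near-identical copy in Hspa1b, was at 4641 CPM in stomach, against 2168, 2228 and 586 CPM, and Atf3 at 1159 CPM against 411, 620.3 and 401 CPM. This list is known to respond to tissue digestion, and its part in the other differences was not tested. Of 5 proliferation genes 3 were higher (Mki67, Top2a and Pcna), with a median of 1.08 and -0.37 in T cells. Mki67 was at 106 CPM in stomach, against 28.3, 25.3 and 37.1 CPM, with 38.3% of stomach UMIs in 1 barcode, and Pcna, the sliding clamp of replication, at 267 CPM against 113, 114 and 141 CPM.

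In the S100 and annexin list 5 of 16 were higher (S100a4, S100a6, Anxa1, Lgals1 and Capg) and 0 lower. The list had a median of 0.52, and 1.43 in T cells. Shares over all genes tested were 2.78% higher and 8.55% lower. S100a6 was at 1654 CPM in stomach, against 978, 114 and 921 CPM, and Lgals1, the lectin galectin-1, at 1187 CPM against 468, 278 and 594 CPM. Of 12 interferon-response genes 1 was higher (Bst2), with a median of 0.27, and of 9 glycolysis and hypoxia genes 0 passed, with a median of 0.17.

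Within each library, barcodes with an Eomes UMI were set beside those without, a split chosen after values were seen and given as a description. There were 34 with and 261 without in stomach, 5 and 25 in small intestine, 4 and 36 in cecum, and 13 and 32 in colon. In stomach the barcodes with Eomes carried more Gzma (3212 CPM with Eomes, 181 without), Klra7 (692 and 10.5 CPM), Klra8 (515 and 21.0 CPM), Klra4 (423 and 18.4 CPM) and Ccl5 (5756 and 2204 CPM). They carried less Cxcr6 (30.7 CPM with Eomes, 932 without), Tmem176a (53.8 and 412 CPM), Il7r (7.69 and 197 CPM), Cd200r1 (23.1 and 224 CPM) and Klrb1b (177 and 739 CPM). A Cxcr6 UMI was present in 5.88% of stomach barcodes with Eomes and 81.6% of those without. For Ccl5 these shares were 58.8% with Eomes and 64.8% without, so its higher summed level was not matched by a higher share of barcodes. Median depth in stomach was 3086.5 UMIs with Eomes and 2730 without.

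The intestinal libraries, with few barcodes, showed only part of this contrast. Klra7 was higher with Eomes in each: 1992 CPM with and 139 without in small intestine, 1966 and 278 CPM in cecum, and 889 and 355 CPM in colon. Ccl5 went the other way in colon, at 5140.3 CPM with Eomes and 8874 without, where the intervals did not overlap. Klra8 had 0 UMIs with Eomes and 167 CPM without in cecum, with overlapping intervals. Cxcr6 and Tmem176a had 0 UMIs in barcodes with Eomes in all 3, against 399.8, 195 and 101 CPM (Cxcr6) and 209, 153 and 334 CPM (Tmem176a) without. The intervals for these 0 counts reach 283 CPM in small intestine, 518 for cecum and 102.5 for colon. Of the 6 pairs, only Tmem176a in colon had intervals that did not overlap (up to 102.5 CPM with Eomes, 230.1 to 469 CPM without). Granzymes varied between libraries. Gzma was at 1838.5 CPM with Eomes and 156 without in small intestine, 140.4 and 195 in cecum, and 1806 and 1185 in colon. T cells of small intestine held 26958 CPM of Gzma, and the part of free RNA was not tested. Gzmb was at 306 CPM with Eomes and 871 without in colon. Gzmc, by comparison, had 0 UMIs with Eomes and 517 CPM without in colon, but 484 and 599.6 CPM in stomach.

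**Figure D4:**
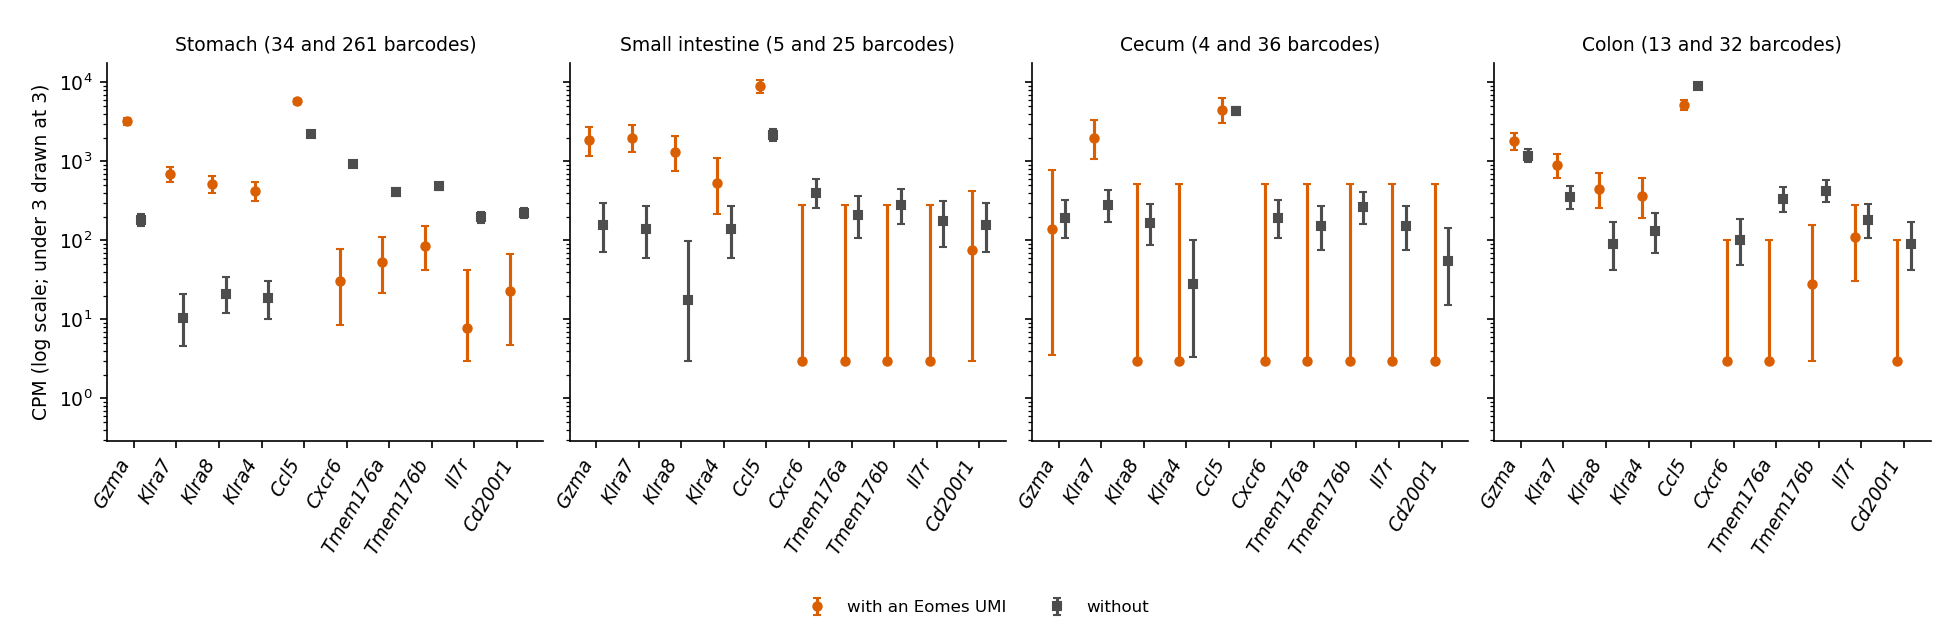
CPM of 10 genes in NK and ILC1 barcodes with an Eomes UMI (orange circles) and without (grey squares), on a log axis with exact Poisson intervals, 1 panel per library. In stomach the CPM of Gzma, Ly49 genes and Ccl5 is higher with Eomes and that of Cxcr6, Tmem176a, Tmem176b, Il7r and Cd200r1 is lower.

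Clustering of the 410 barcodes gave 5 groups that largely followed the library, so they are kept as numbers and were not tested. Groups 1, 2 and 3 (61, 101 and 116 barcodes) were 96.7%, 96.0% and 97.4% stomach. Group 4 (103 barcodes) held 1 of 295 stomach barcodes, 24 of 30 small intestine, 39 of 40 cecum and 39 of 45 colon barcodes, and was led by Cebpb, Scand1, Taf10 and Jund, the genes that were low in stomach. Group 5 (29 barcodes) held 25 stomach, 0 small intestine, 1 cecum and 3 colon barcodes, and was led by Gzma, Klra4, Gzmb, Klra13-ps, Eomes and Klra7.

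Within the stomach library alone the groups differed in these genes. Group 5 had 6376 CPM of Gzma and 0 UMIs of Cxcr6 and Il7r in stomach, against 0 to 246 CPM of Gzma and 659 to 1299 CPM of Cxcr6 in stomach barcodes of groups 1 to 3. Stomach barcodes of group 1 had the most Gzmc (1008 CPM) and Itgae (391 CPM), those of group 2 the most Hspa1a (6472 CPM), and those of group 3 nearly all of Mki67 (227 CPM, against 10.5 to 19.9 CPM in groups 1, 2 and 5). Group 2 was headed by class II genes such as H2-Aa and Cd74, which 10.9% and 17.8% of its barcodes carried, and the part of free RNA or doublets in this was not tested. Klrb1b was at 635 to 776 CPM in stomach barcodes of groups 1 to 3 and 285 CPM in group 5, and Klrk1 between 1142 and 1432 CPM in groups 1, 2, 3 and 5.

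**Figure D5:**
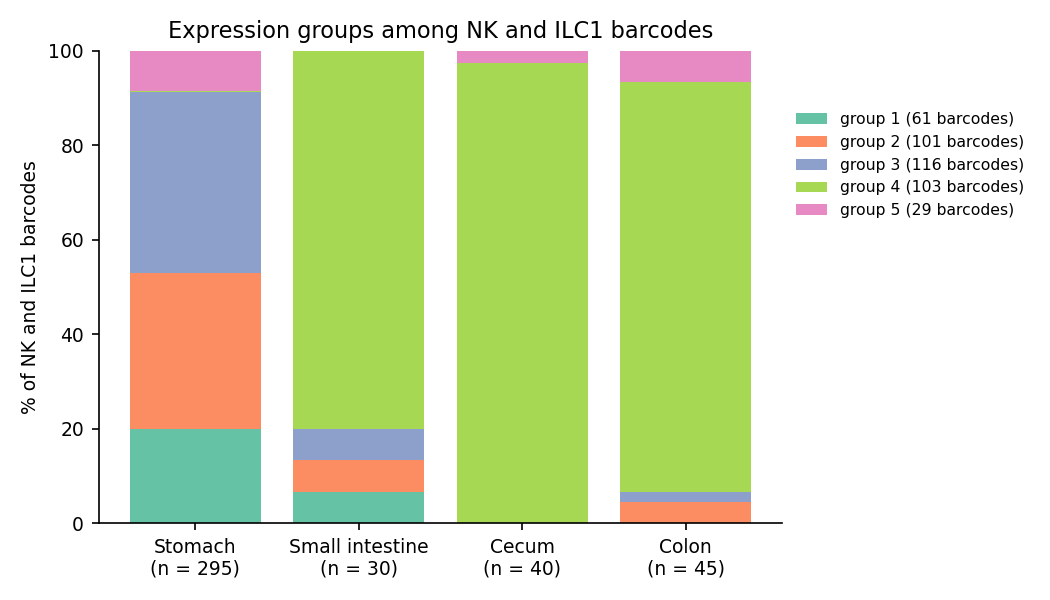
Share of NK and ILC1 barcodes in each of 5 expression groups, stacked to 100% per library. Group 4 takes 80% of small intestine, 97.5% of cecum and 86.7% of colon barcodes and 0.339% of stomach barcodes, and group 5 takes 8.47% of stomach barcodes.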

How the data were processed

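Leukocytes sorted as CD45.2+ intraepithelial cells were sequenced with a 10x 3′ kit (v2), 1 library per tissue, per the labels. The deposited files hold UMI counts per gene symbol and barcode. Per the submitters' processing notes, Cell Ranger and Seurat 3.0.0 were used with GRCm38 and mm10. The version of Cell Ranger is not given in the sources used here. The files list 16500 symbols, 13102 of them in all 4 libraries, and 0 ribosomal protein (Rpl, Rps) or mitochondrial (mt-) symbols, so CPM are relative to the genes listed. The members and gene lists were chosen with earlier results of these data known.

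UMIs were summed over the barcodes of a library and cell type and divided by their total (CPM), with exact Poisson intervals for levels, exact conditional binomial intervals for ratios, exact Clopper-Pearson intervals for shares, and no p-value. Genes entered a comparison when listed in all 4 libraries, with at least 100 CPM in either arm and 20 UMIs in both together. The 7 rule genes were left out. T cell values of the stomach comparison used the genes that passed in NK and ILC1 barcodes, with no level filter in T cells. In ratios a count of 0 was taken as 3. Named genes are the 12 highest and 12 lowest ratios between stomach and the other libraries and the 10 highest and 10 lowest medians against T cells, with the same direction throughout, besides the markers and the 26 lists. A gene whose level in the higher arm was under 20% of that in another cell class was set apart as possible free RNA. Thinning drew 1000 UMIs per barcode and left out shallower ones. Groups came from Leiden clustering (1000 variable genes, 15 components, 15 neighbours, resolution 0.5). Doublets were not called. The ratio script was tested on simulated counts. Python 3.11.15, NumPy 2.4.6, SciPy 1.17.1, pandas 2.3.3, scanpy 1.11.5, igraph 0.11.9 and matplotlib 3.10.9 were used. Alternatives changed the rule, depth, scaling, level filter and the libraries summed.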

Additional observations from a re-analysis of the deposited data

Results flagged for a closer look

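For 8 genes of the lists the stomach ratio was past 2-fold in NK and ILC1 barcodes, with the same sign against each of the 3 other libraries, and had the opposite sign against each of the 3 in T cells, and the difference between the cell types was not tested. With 1 library per tissue these are differences between libraries. Klra1, a Ly49 receptor, had a log2 ratio of -1.74 in NK and ILC1 barcodes (32.6 CPM in stomach, 109 in the others) and 1.98 in T cells (247 CPM in stomach, 62.8 in the others). Klra8 had -1.05 in NK and ILC1 barcodes and 2.25 in T cells, where it rests on 3 UMIs in stomach and 24 in the others. Klra13-ps had -1.12 and 0.76 in the same order, and these Ly49 genes are paralogs whose reads may be shared. Cd247, the zeta chain, had -1.65 in NK and ILC1 barcodes and 0.21 in T cells, and Sh2d1a, the adaptor SAP, -1.56 and 1.48.

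Fosl2, an AP-1 subunit, had a log2 ratio of -1.02 in NK and ILC1 barcodes (227 CPM in stomach, 461 in the others) and 0.52 in T cells (266 and 186 CPM). Cd200r1 went the other way, with 1.26 in NK and ILC1 barcodes (194 CPM in stomach, 80.9 in the others) and -0.97 in T cells (73.1 and 143 CPM). Mki67, a gene of dividing cells, had 1.74 in NK and ILC1 barcodes and -0.94 in T cells, with 38.3% of its stomach UMIs in 1 NK or ILC1 barcode. Top2a, Dusp2 and Ly6c2 also had opposite signs against the 3 libraries summed, but not against each of them in both cell types.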

How the results depend on the processing

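No alternative that was run turned a direction round. The stomach share of NK and ILC1 barcodes was 6.31% with at least 2 Ncr1 UMIs (0.505% in small intestine and 0.613% in cecum), 11.96% among barcodes of at least 1581 UMIs and 6.28% after thinning (0.536% in small intestine). With 0 UMIs of every T cell receptor constant gene required, the shares were 0.5002% in stomach, 0.0631% in small intestine, 0.0943% for cecum and 0.0266% for colon, and too few barcodes were left for gene comparisons. With 0 UMIs of Trac, Trdc and the gamma genes alone, a choice made after seeing the data, they were 7.66% in stomach and 0.691% in colon. Genes higher in stomach numbered 120 after thinning, 100 without colon, 24 with at least 300 CPM and 261 with no level filter, and genes lower in stomach 45 and 484 under those last settings. Against T cells, 8 were higher and 2 lower with at least 300 CPM, and 60 and 14 with no level filter. The cause was not tested, other than that level filters change how many genes are tested. Elsewhere 64 to 98 genes were higher in stomach and 165 to 251 lower. Thinned values of the named stomach genes that moved by over 1.5 times stand beside them above. Against T cells, thinning gave median log2 ratios of 6.197 for Klrb1f, 5.88 for Klrb1b, 3.13 for Tmem176a, -0.41 for Gzma, -2.97 for Trdc, -3.35 for Trac and -3.27 for Cd8a. With 0 UMIs of Trac, Trdc and the gamma genes the stomach log2 ratio of Rgs16 was 2.44. No paired analysis was possible because each tissue has 1 library. The 30 to 45 NK and ILC1 barcodes per intestinal library limit the precision of the comparisons that use them.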
